A study of Arabidopsis thaliana with 8 samples.

Results

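Core cell cycle genes are taken here as 46 Arabidopsis thaliana genes, chosen by their AGI codes from the A-, B- and D-type cyclins, the kinases CDKA and CDKB, the KRP and SIM inhibitors, the E2F transcription factors with DEL1 and RBR1, and the CCS52 activators. They are 46 of the 38209 genes in each table, and all 46 had a row in every table. The series compared the seed transcriptomes of 4 genotypes that differ in PICKLE (PKL) and PICKLE-RELATED 2 (PKR2), CHD3-type chromatin remodelers of one gene family. The genotypes were the wild-type accession Col-0, the single mutants pkr2-2 and pkl-1, and the double mutant pkr2-2;pkl-10, with 2 biological replicates each and 8 samples in all.

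All mutants were in the Col-0 background. pkr2-2 and pkl-10 are insertion lines, and pkl-1 is an older allele that the study genotyped with primers ending in different bases. The double mutant therefore carries another pkl allele than the pkl single mutant. Seeds came from at least 30 siliques per replicate of plants grown in 16 h light and 8 h dark. The tissue label gives 4 days after pollination (DAP), whereas the extraction protocol gives 3 DAP. Seeds were sequenced whole, so embryo, endosperm and seed coat share each library.

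The tables hold fragments per kilobase of transcript scaled to library size (FPKM), pooled over the 2 replicates of a genotype. Each genotype thus has 1 value per gene and table, no difference has a replicate check, and no test was made. Differences are given as log2((FPKM + 1) ratio), for genes with a mean of at least 1 FPKM over both genotypes, and a gene was called higher or lower when this difference passed 1. The 5 tables (each mutant against Col-0, and the double mutant against each single mutant) were normalised separately and reuse the same 4 pools. A genotype's values in different tables differed by a constant factor, and FPKM quoted for all 4 genotypes were put on the scale of the double mutant and Col-0 table through the shared Col-0 column. Depth, estimated from the value of 1 fragment, was between 39100000 and 53600000 fragments over nuclear genes per pool, and at least 60 fragments stood behind any member value of 1 FPKM or more.

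PKR2 (AT4G31900) was at 3.57 (Col-0), 0.196 (pkr2-2), 2.33 (pkl-1) and 0.120 FPKM (double mutant). PKL (AT2G25170) was at 13.6 (Col-0), 12.6 (pkr2-2), 16.1 (pkl-1) and 2.44 FPKM (double mutant). Both insertion alleles thus had less message of the targeted gene, while the message level gives no check of pkl-1.

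Plant cell division is driven by a cyclin-dependent kinase bound to a cyclin. D-type cyclins with CDKA act at entry into the cycle, where they release E2F transcription factors from the retinoblastoma protein RBR1. A- and B-type cyclins act at DNA replication and mitosis, and the plant-specific CDKB kinases act around mitosis. KRP and SIAMESE-type proteins inhibit the kinases, and CCS52 proteins direct cyclins to breakdown by the anaphase-promoting complex. High inhibitor or CCS52 activity is known to move cells from division into endoreduplication, in which DNA is copied without mitosis. In the young Arabidopsis seed the endosperm first divides as a syncytium and then forms cell walls, the embryo divides, and the seed coat grows mainly by cell expansion.

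Many mitotic genes of plants carry a mitosis-specific activator (MSA) element, with the core AACGG, that is bound by MYB3R factors, and genes of DNA replication carry E2F-type sites. Promoter windows from 250 bases before to 50 after the gene start were read from TAIR10.1 with its RefSeq annotation for 27443 nuclear protein-coding genes and searched on both strands. At least 1 core was found in 24.7% of all promoters and in 41.3% of the members. Windows with at least 2 AACGG cores were 4.89% of all promoters and 30.4% of the members (14 of 46), with 7 of the 8 B-type cyclins among them. The E2F-type words TTTCCCGC, TTTCGCGC, TTTGCCGC and TTTGGCGC were found in 1.76% of all promoters and in 2 members, CYCD3;3 and RBR1. The stretches below run 5′ to 3′ in the direction of transcription, with every core or E2F-type word in capitals. CCGTT is the core on the other strand, and GCGCCAAA is TTTGGCGC on the other strand. They are shown because repeated cores stand before CYCB1;1 and CYCB1;3, called lower in the double mutant, before CYCB1;2, which stopped just short of a call, and before KRP1 and KRP7, called higher, and because CYCD3;3 and RBR1 hold the 2 E2F-type matches.
CYCB1;1 (chr4:17624309-17624486, minus strand, 178 to 1 bases before the gene start): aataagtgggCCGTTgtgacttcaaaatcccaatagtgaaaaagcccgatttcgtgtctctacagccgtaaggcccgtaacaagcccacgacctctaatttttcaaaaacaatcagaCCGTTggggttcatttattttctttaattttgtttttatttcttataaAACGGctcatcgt
CYCB1;2 (chr5:1861704-1861856, minus strand, 153 to 1 bases before the gene start): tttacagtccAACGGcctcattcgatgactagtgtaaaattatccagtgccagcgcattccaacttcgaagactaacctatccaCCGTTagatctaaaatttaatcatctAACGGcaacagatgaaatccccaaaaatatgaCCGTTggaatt
CYCB1;3 (chr3:3627274-3627347, minus strand, 74 to 1 bases before the gene start): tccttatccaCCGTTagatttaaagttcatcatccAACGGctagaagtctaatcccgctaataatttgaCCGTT
KRP1 (chr2:9978102-9978315, minus strand, 225 to 12 bases before the gene start): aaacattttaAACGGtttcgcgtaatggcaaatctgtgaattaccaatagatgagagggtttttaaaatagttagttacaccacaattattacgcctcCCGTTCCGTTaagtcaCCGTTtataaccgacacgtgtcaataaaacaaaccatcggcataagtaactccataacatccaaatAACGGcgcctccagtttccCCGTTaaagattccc
KRP7 (chr1:18366775-18366877, minus strand, 133 to 31 bases before the gene start): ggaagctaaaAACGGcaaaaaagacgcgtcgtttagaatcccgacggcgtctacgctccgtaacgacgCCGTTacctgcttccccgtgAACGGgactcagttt
CYCD3;3 (chr3:18566921-18566948, minus strand, 114 to 87 bases before the gene start): attttctcgcGCGCCAAAcatccgaata
RBR1 (chr3:3919398-3919445, minus strand, 86 to 39 bases before the gene start): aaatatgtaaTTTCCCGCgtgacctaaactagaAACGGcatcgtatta

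The inhibitor genes KRP1 and KRP7 had more cores in the whole window (7 and 5) than CYCB1;1 and CYCB1;3 (3 each), and CYCB1;2 had 5. Members with at least 2 cores spread from -1.49 to 1.41 in the double mutant against Col-0, with 3 called lower and 2 called higher among 12 tested, where 8.89% of all tested genes were called lower and 10.3% higher. The other 29 tested members spread from -1.84 to 1.01, with 3 called lower and 1 higher. The most reduced member, CDKB1;1, had no core in its window, nor had CDKB1;2 or DEL1. Beside the members, 9 of 11 genes of mitosis and cytokinesis had at least 1 core, and 8 of 16 genes of pre-replication and DNA synthesis had an E2F-type word. A match describes letters only and marks no binding site.

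**Figure D1:**
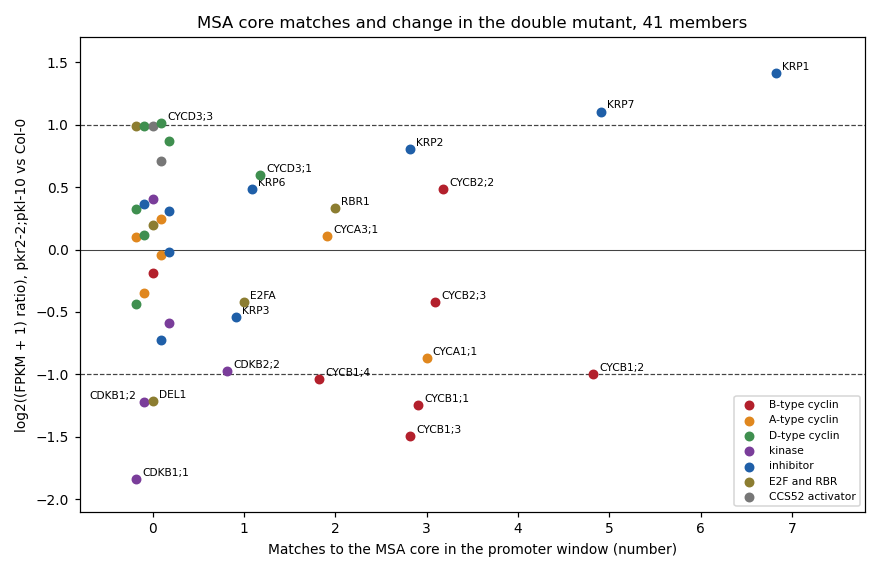
Number of MSA core matches in the promoter window (x axis, points shifted sideways where they would overlap) against log2((FPKM + 1) ratio of the double mutant to Col-0) (y axis) for the 41 tested members, coloured by role, with dashed lines at -1 and 1. Members with repeated cores spread from CYCB1;3 (3 cores) at -1.49 to KRP1 (7 cores) at 1.41, with others between, such as CYCB2;2 (3 cores) at 0.48. The lowest member, CDKB1;1 at -1.84, has 0 cores.

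As a whole list, the members did not move in 1 direction. Their median log2((FPKM + 1) ratio) was 0.08 for pkr2-2, -0.02 for pkl-1 and 0.11 for the double mutant, each against Col-0, beside medians of 0.02, -0.02 and 0.02 over all tested genes. In pkr2-2, 0 of 40 tested members were called, where 2.90% of all tested genes were called higher and 1.88% lower. In pkl-1, 0 members were called higher and 4 of 40 lower, where all genes gave 6.00% and 5.94%. In the double mutant, 3 of 41 members were called higher (7.32%) and 6 lower (14.6%), where all genes gave 10.3% and 8.89%. Against pkr2-2, the double mutant had 1 member called higher and 5 lower of 41, beside 6.67% and 7.30% of all genes. Against pkl-1 it had 0 called, beside 2.03% and 1.94%. With a pseudocount of 1, the share called higher was below that of all genes in each comparison. The share called lower was above it, by few genes, where a genotype with a pkl mutation was compared with one without. With a pseudocount of 0.1 FPKM in place of 1, which weighs low values more, 3 members were called higher and 8 lower in pkl-1 (8.77% and 7.74% of all genes), and the double mutant had 7 and 9 such calls against Col-0 (14.1% and 10.6%). The share called higher in the double mutant, 7 of 41, was then above that of all genes. The 12 members called in at least 1 comparison with a pseudocount of 1 are described by role. Of the 46 members, 40 passed the 1 FPKM filter in all 5 comparisons. CYCB2;2 passed only in those with the double mutant, and CYCB2;1, CYCA2;1, CYCD6;1, CYCD7;1 and CCS52B passed in none.

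**Figure D2:**
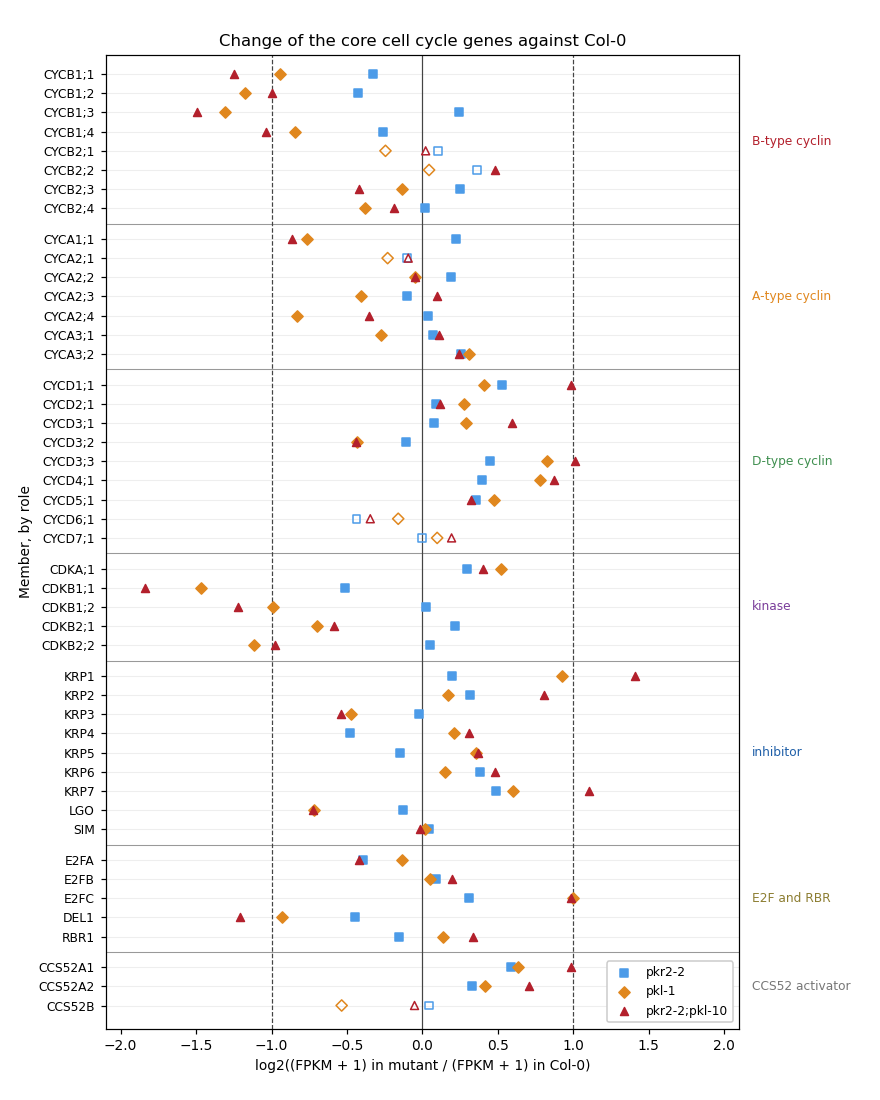
log2((FPKM + 1) ratio) of each of the 46 members in pkr2-2 (blue squares), pkl-1 (orange diamonds) and the double mutant (red triangles) against Col-0, by role. Open symbols mark members under the 1 FPKM mean, which were not tested, and dashed lines mark -1 and 1. The CYCB1 cyclins and CDKB kinases lie left of 0 in pkl-1 and the double mutant, and most D-type cyclins and CCS52 genes lie right of it.

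The mitotic B-type cyclins of the CYCB1 subgroup were lower in pkl-1 and in pkr2-2;pkl-10 than in Col-0 and pkr2-2. CYCB1;1 (AT4G37490), whose destruction at the end of mitosis makes it a common marker of dividing cells, was at 7.45 (Col-0), 5.68 (pkr2-2), 3.37 (pkl-1) and 2.56 FPKM (double mutant). CYCB1;2 (AT5G06150), the highest B-type cyclin, was at 19.4, 14.1, 7.97 and 9.21 FPKM in the same order of genotypes. CYCB1;3 (AT3G11520) was at 9.51, 11.5, 3.20 and 2.74 FPKM. These 3 cyclins and CYCB1;4 (AT2G26760), at 7.69, 6.23, 3.81 and 3.24 FPKM, had their 2 lower values in pkl-1 and the double mutant. The differences from Col-0 in the double mutant were -1.25 for CYCB1;1, -0.996 for CYCB1;2, -1.49 for CYCB1;3 and -1.03 for CYCB1;4 on the log2 scale. In pkl-1 they were -0.94, -1.18, -1.31 and -0.85, so CYCB1;2 passed the threshold in pkl-1 and stopped just short of it in the double mutant. In pkr2-2 they stayed between -0.43 and 0.24. About 11.3% of the 50-base words in CYCB1;2 exons also occur elsewhere in the genome, so its value may share reads with another locus.

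The CYCB2 subgroup was different in level and in change. CYCB2;3 (AT1G20610) was at 3.18 FPKM in Col-0 against 2.12 in the double mutant, a difference of -0.42, and 17.0% of its exonic 50-base words occur elsewhere. CYCB2;4 (AT1G76310) differed by -0.19 and CYCB2;2 (AT4G35620) by 0.48, from 0.840 to 1.57 FPKM. CYCB2;1 (AT2G17620) stayed between 0.0528 and 0.368 FPKM in the 4 genotypes and was not tested. The summed CYCB1 level in the double mutant was 0.403 of that in Col-0, and the summed CYCB2 level was 0.893 of it.

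The CDKB kinases, whose messages and proteins peak around mitosis, were lower together with the CYCB1 cyclins. CDKB1;1 (AT3G54180, chr3:20059671-20061488, plus strand) was at 38.3 (Col-0), 26.5 (pkr2-2), 13.2 (pkl-1) and 9.98 FPKM (double mutant). It was the third highest member in Col-0, the eighth in pkl-1 and the 11th in the double mutant. Its difference from Col-0 was -0.51 for pkr2-2, -1.47 for pkl-1 and -1.84 for the double mutant, the largest in size of any member in the double mutant, at percentile 2.87 of all tested genes. CDKB1;2 (AT2G38620) was at 14.3, 14.6, 6.69 and 5.57 FPKM in Col-0, pkr2-2, pkl-1 and the double mutant. CDKB2;2 (AT1G20930) was at 20.0, 20.7, 8.66 and 9.66 FPKM, and CDKB2;1 (AT1G76540) at 10.5, 12.4, 6.07 and 6.67. For these 3 kinases pkr2-2 differed from Col-0 by 0.03 to 0.21, and both genotypes with a pkl mutation were lower. CDKB1;2 was called lower in the double mutant (-1.22) but not in pkl-1 (-0.988), whereas CDKB2;2 was called in pkl-1 (-1.11) but not in the double mutant (-0.977). Against pkr2-2, the double mutant had both CDKB1 genes and CDKB2;2 called lower (-1.32, -1.24 and -1.02), with CYCB1;3 at -1.74. The summed CDKB level of the double mutant was 0.384 of Col-0 and 0.432 of pkr2-2.

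CDKA;1 (AT3G48750), the kinase that acts through the whole cycle, went the other way. It was at 20.9 (Col-0), 26.0 (pkr2-2), 30.5 (pkl-1) and 28.0 FPKM (double mutant), differences of 0.30, 0.52 and 0.40. In Col-0 CDKB1;1 was above CDKA;1, and in the double mutant CDKA;1 was above all 4 CDKB genes.

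Among the A-type cyclins, CYCA1;1 (AT1G44110) had the largest difference in the double mutant. It was at 4.47 (Col-0), 5.43 (pkr2-2), 2.19 (pkl-1) and 2.00 FPKM (double mutant). Relative to Col-0 it differed by -0.77 (pkl-1) and -0.87 (double mutant), neither a call, and it was called lower in the double mutant against pkr2-2 (-1.10). CYCA3;2 (AT1G47210), the highest A-type cyclin and of a subgroup linked to DNA replication, was at 8.06, 9.85, 10.3 and 9.73 FPKM, with Col-0 the lowest. CYCA2;4 (AT1G80370) differed by -0.83 in pkl-1 but by -0.35 in the double mutant. CYCA2;2 (AT5G11300), CYCA2;3 (AT1G15570) and CYCA3;1 (AT5G43080) differed by -0.05 to 0.11 in the double mutant, and CYCA2;1 (AT5G25380) was under 1 FPKM in all 4 genotypes.

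Of the D-type cyclins, which link growth signals to entry into the cycle, 1 of 7 tested was called higher in the double mutant and 0 in either single mutant. All tested genes gave 10.3% higher in the double mutant, 6.00% in pkl-1 and 2.90% in pkr2-2. CYCD3;3 (AT3G50070, chr3:18565134-18566834, minus strand), whose promoter holds one of the E2F-type matches printed above, was at 16.2 (Col-0), 22.6 (pkr2-2), 29.6 (pkl-1) and 33.8 FPKM (double mutant). Its difference from Col-0 was 0.45, 0.82 and 1.01, and its call in the double mutant was lost when differences were centred on the median of all genes (0.99). CYCD3;2 (AT5G67260), the highest D-type cyclin in Col-0, was at 22.8, 21.1, 16.6 and 16.6 FPKM and so differed in direction from its close relative, with -0.44 in the double mutant. CYCD1;1 (AT1G70210) was at 1.39 FPKM in Col-0, 3.74 in the double mutant and between these in the single mutants, a difference of 0.99 in the double mutant. CYCD4;1 (AT5G65420) was at 4.03, 5.66, 7.69 and 8.20 FPKM (0.87 in the double mutant), and CYCD3;1 (AT4G34160) differed by 0.60. CYCD2;1 (AT2G22490) differed by 0.12 and CYCD5;1 (AT4G37630) by 0.33, and both were highest in pkl-1. Of the 7 tested D-type cyclins, 6 were above 0 and 1 below in double-mutant seeds, and the median was 0.60. CYCD6;1 (AT4G03270) and CYCD7;1 (AT5G02110), known from root formative divisions and stomatal precursors, were not tested, and CYCD7;1 was listed at 0 in Col-0 and pkr2-2.

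**Figure D3:**
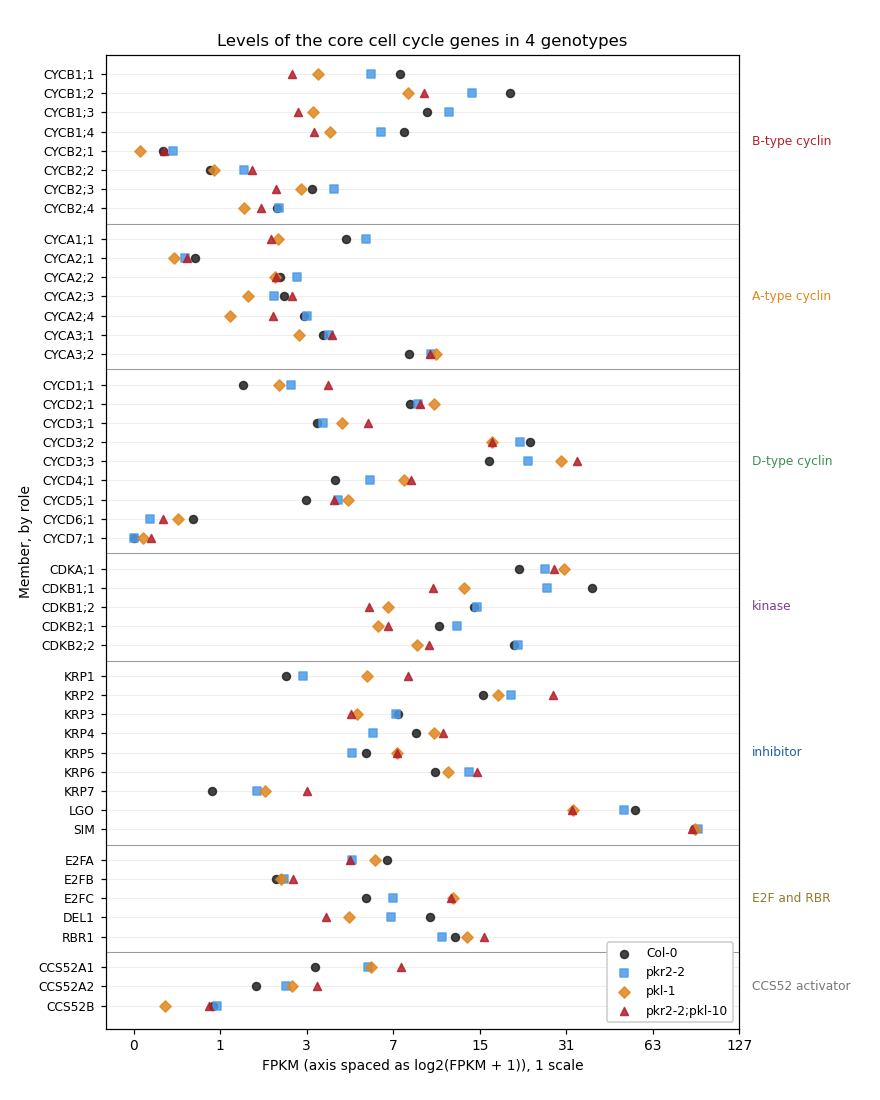
FPKM of each of the 46 members in Col-0 (black circles), pkr2-2 (blue squares), pkl-1 (orange diamonds) and the double mutant (red triangles), by role, on an axis spaced as log2(FPKM + 1). Each symbol is 1 pooled value with no error bar. SIM stays near 88 FPKM in all 4 genotypes, while CDKB1;1 spans 38.3 to 9.98.

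The inhibitors divided by gene. KRP1 (AT2G23430, chr2:9976590-9978090, minus strand), an inhibitor of CDKA and D-type cyclin complexes, was at 2.38 (Col-0), 2.89 (pkr2-2), 5.46 (pkl-1) and 7.98 FPKM (double mutant). Its difference was 0.19 for pkr2-2, 0.92 for pkl-1 and 1.41 for the double mutant against Col-0, the largest increase of any member. KRP7 (AT1G49620) was at 0.869, 1.69, 1.87 and 3.02 FPKM, with a difference of 1.10 in the double mutant. About 34.2 fragments stood behind its Col-0 value and 189 behind that of the double mutant. Both genes were lowest in Col-0 and highest in the double mutant. KRP2 (AT3G50630) was at 15.5, 19.5, 17.5 and 27.8 FPKM (0.81 in the double mutant). KRP3 (AT5G48820) was the KRP gene below Col-0 in pkl-1 and the double mutant, at 7.32, 7.20, 4.96 and 4.72 FPKM, a difference of -0.54 in the latter. KRP4 (AT2G32710), KRP5 (AT3G24810) and KRP6 (AT3G19150) differed by 0.31 to 0.48 in the double mutant. In pkr2-2, KRP4 (-0.48) and KRP5 (-0.15) were further below Col-0 than KRP3 (-0.02). A neighbour overlaps 38.7% of the exonic bases of KRP4. The summed KRP level was 50.2 FPKM in Col-0 against 76.3 in the double mutant, a ratio of 1.52.

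The SIAMESE-type inhibitors SIM and LGO were the 2 most abundant members in Col-0 and the single mutants. SIM (AT5G04470), first known for keeping leaf hair cells from dividing, was at 87.9 (Col-0), 90.8 (pkr2-2), 89.1 (pkl-1) and 86.8 FPKM (double mutant). It was the highest member in all 4 genotypes, and its differences from Col-0 were 0.05, 0.02 and -0.02. LGO (AT3G10525), which sets the number of giant cells in sepals, was at 54.6, 49.8, 32.9 and 32.6 FPKM, a difference of -0.73 in the double mutant, where CYCD3;3 was above it. An annotated gene on the other strand covers 42.7% of SIM's and 45.4% of LGO's exonic bases and was listed at 0 FPKM in Col-0 and the double mutant in both cases.

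Of the E2F and RBR group, the repressor E2FC (AT1G47870) was at 5.41 (Col-0), 6.98 (pkr2-2), 11.9 (pkl-1) and 11.7 FPKM (double mutant), differences of 0.31, 0.999 and 0.985. The activator E2FA (AT2G36010) was at 6.59, 4.75, 5.89 and 4.66 FPKM (-0.42 in the double mutant), and E2FB (AT5G22220) was within 2.13 to 2.60 FPKM. RBR1 (AT3G12280), the highest of this group, was at 12.2, 10.8, 13.5 and 15.6 FPKM, a difference of 0.33. E2FC was thus above Col-0 in all 3 mutants and E2FA below it, while E2FB, also an activator, was slightly above (0.20 in the double mutant), and none of the 3 was called.

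DEL1 (AT3G48160, chr3:17783331-17786160, plus strand), an atypical E2F known in Arabidopsis to repress CCS52A2 and to hold back endoreduplication, was at 9.77 (Col-0), 6.87 (pkr2-2), 4.62 (pkl-1) and 3.65 FPKM (double mutant). It was called lower in the double mutant, with a difference of -1.21. It overlaps AT3G48170 on the other strand over 16.2% of its exonic bases, and that gene was also lower, at 73.9 FPKM in Col-0 against 47.7 in the double mutant. Without a stated strand setting, reads of the overlap cannot be told apart. The same limit holds for CDKB1;2 (18.3% of exonic bases, with a neighbour at 4.32 and 2.55 FPKM), CDKB2;2 (13.8%, neighbour at most 0.233 FPKM in the 3 mutant and Col-0 tables) and CDKB1;1 (5.15%, neighbour at 28.3 and 29.5 FPKM). The CYCB1 genes, KRP1, KRP7 and CYCD3;3 overlap no annotated gene. CCS52A2 (AT4G11920) was at 1.66, 2.37, 2.56 and 3.34 FPKM, the reverse order of genotypes. CCS52A1 (AT4G22910), the other A-type activator, was at 3.28, 5.53, 5.67 and 7.50 FPKM, with a difference of 0.59 in pkr2-2 and 0.988 in the double mutant. CCS52B (AT5G13840), which acts in mitosis, stayed under 1 FPKM and was not tested.

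Across genotypes, 7 members were stepwise lower in the order Col-0, pkr2-2, pkl-1 and double mutant, namely CYCB1;1, CYCB1;4, CYCD3;2, CDKB1;1, KRP3, LGO and DEL1. Another 7 were stepwise higher in this order, namely CYCD3;1, CYCD3;3, CYCD4;1, KRP1, KRP7, CCS52A1 and CCS52A2. The steps rest on 1 pooled value each and include small ones, such as 32.9 to 32.6 FPKM for LGO. How many of all genes follow either order was not computed, so these counts have no background and mark no trait of the list.

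Loss of PKL can be read in 2 contrasts that share no library, pkl-1 against Col-0 and the double mutant against pkr2-2. Over the 40 members tested in both, the differences ran together, with a Pearson r of 0.90 and a Spearman rho of 0.87, beside an r of 0.75 over 17527 genes. In both contrasts 17 members were higher, 18 were lower, and 5 had opposite signs. Of the 17527 genes, 6802 were higher in both, 7081 lower in both and 3644 opposite. CDKB1;1 differed by -1.47 and -1.32, CYCB1;3 by -1.31 and -1.74, CDKB2;2 by -1.11 and -1.02, and KRP1 by 0.92 and 1.22. The 2 contrasts used different pkl alleles. Loss of PKR2, read in pkr2-2 against Col-0 and the double mutant against pkl-1, gave an r of 0.43 and a rho of 0.37 over 40 members, with 17 higher and 6 lower in both and 17 opposite. The second of these contrasts also changes the pkl allele, from pkl-1 to pkl-10, so PKR2 and the allele cannot be told apart in it. Over 17001 genes r was 0.34 and rho 0.33, with 5840 higher in both, 4562 lower in both and 6598 opposite. Here KRP2 (0.31 and 0.66), CYCD1;1 (0.53 and 0.60), KRP7 (0.49 and 0.52) and CCS52A1 (0.59 and 0.37) were higher in both, and CDKB1;1 (-0.51 and -0.36) and DEL1 (-0.45 and -0.27) lower in both. Members are not replicates, and all points of a contrast share its pools and scaling, so these values are descriptions.

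**Figure D4:**
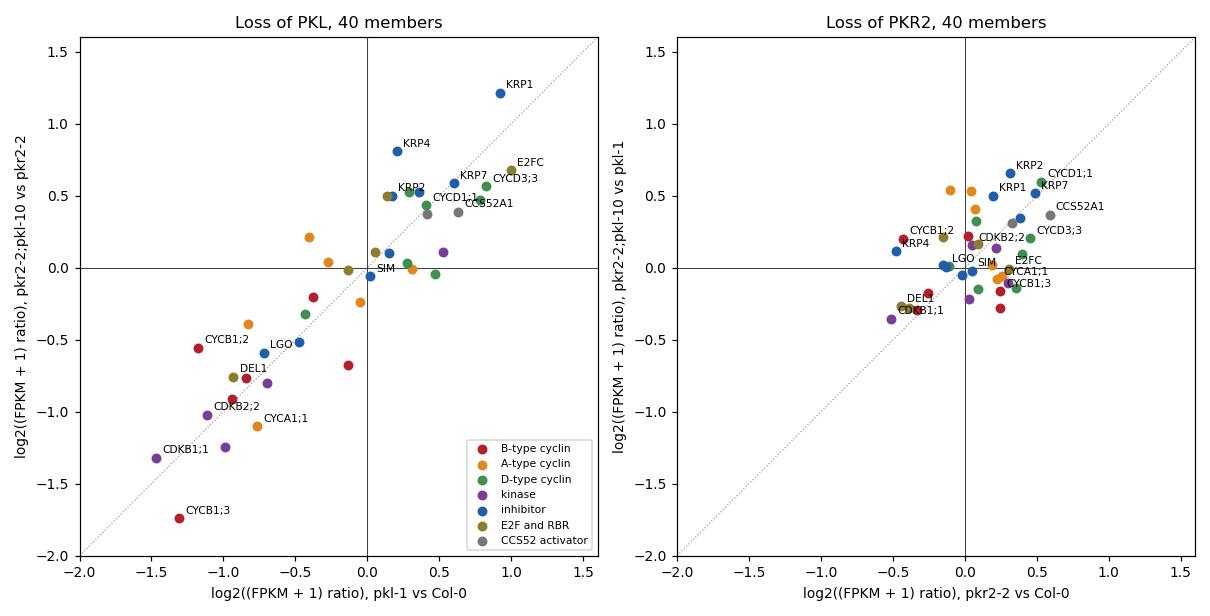
log2((FPKM + 1) ratio) of 40 members in 2 contrasts that share no library, for loss of PKL (left) and loss of PKR2 (right), coloured by role, with a dotted line of equality. The double mutant against pkl-1 (right) also differs in pkl allele. The PKL contrasts spread along the line from CYCB1;3 and CDKB1;1 to KRP1 (r of 0.90), while the PKR2 contrasts stay within -0.51 and 0.66 on both axes.

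Genes that act beside the members were read from 6 other lists. Of 11 genes of mitosis and cytokinesis, 0 were called higher and 2 lower in double-mutant seeds, and the median was -0.37. The 2 were KNOLLE (AT1G08560), the syntaxin of the forming cell plate, at 31.5 FPKM in Col-0 against 7.71 in the double mutant (-1.90), and AUR1 (AT4G32830), a mitotic Aurora kinase, at 10.9 and 3.38 FPKM (-1.45). Of 16 genes of pre-replication and DNA synthesis, 15 were tested and 0 called, with a median of -0.28. The largest differences there were -0.81 for PCNA1 (AT1G07370), the sliding clamp of DNA polymerase, and -0.62 for MCM4 (AT2G16440), a subunit of the replicative helicase. Of all tested genes 8.89% were called lower, and the difference between the lists was not tested.

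Of 8 other cell cycle kinases and partners, 0 were called in the double mutant, and WEE1 (AT1G02970), a checkpoint kinase, differed by -0.85 and CKS2 (AT2G27970), a small CDK-binding subunit, by -0.65. Among 4 DP and other E2F-like genes, DEL2 (AT5G14960) was called lower, from 6.03 to 1.96 FPKM (-1.25), and DEL3 (AT3G01330), at -0.89, was not. The other SIAMESE-related inhibitors went both ways, with AT5G02420, annotated as SMR3-like, at 2.61 FPKM in Col-0 against 11.3 in the double mutant (1.77), and SMR4 (AT5G02220) at 6.09 and 1.79 FPKM (-1.35). These were the 1 higher and 1 lower call among 6 tested of 7. Of the 5 MYB3R and TCX regulators 0 were called, with MYB3R5 (AT5G02320) at 0.54 and AT4G29000, annotated as a Tesmin/TSO1-like CXC protein, at 0.59.

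Markers of the seed compartments differed between the same samples. Of 7 endosperm markers, 6 were tested in the double mutant, 0 called higher and 4 called lower, and their summed level was 110.6 FPKM in Col-0 and 47.3 in pkr2-2;pkl-10, a ratio of 0.428, compared with 0.544 in pkl-1 and 0.825 in pkr2-2. AGL62, an early endosperm factor, was the exception, at 0.531 FPKM in Col-0 against 2.01 in the double mutant. PHE1, at 63.7 FPKM, and FWA, at 26.0 FPKM, made up most of the endosperm sum in Col-0. Of 6 embryo markers, 5 were tested and 2 called lower, with a summed ratio of 0.339 for the double mutant and 0.398 for pkl-1. Without LEC1, a master regulator of embryogenesis at 99.9 (Col-0), 78.8 (pkr2-2), 14.3 (pkl-1) and 5.45 FPKM (double mutant), the embryo ratio was 0.782 for the double mutant and 0.795 for pkl-1. The seed coat sum, from 8 markers of which 2 were called higher, had a ratio of 1.22, with BAN, an enzyme of tannin synthesis, at 734 FPKM in Col-0. BAN and STK, at 469 FPKM, made up most of the 1438 FPKM of this sum in Col-0. Beside these marker calls, 10.3% of all tested genes were called higher in the double mutant and 8.89% lower. The 2 fruit wall markers, FUL and IND, together were at 1.58 FPKM in Col-0 against 9.08 in the double mutant. FUL was at 0.749 (Col-0), 2.92 (pkr2-2), 4.06 (pkl-1) and 6.07 FPKM (double mutant). IND was at 0.827, 1.12, 2.73 and 3.01 FPKM, so each rose stepwise over the genotypes. Of the members, 7 were stepwise higher in this order and 7 stepwise lower. A part of fruit wall tissue in these levels was not tested. IKU2, an endosperm receptor kinase, was near 0 in Col-0 and the double mutant (0.285 and 0.00529 FPKM). No marker of these lists was listed at 0 in either of these genotypes.

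The summed CYCB1 and CDKB level in the double mutant was 0.390 of Col-0, beside 0.428 for endosperm, 0.339 for embryo and 0.782 for embryo without LEC1, a sum mostly of ATML1. In pkl-1 it was 0.416, beside 0.544, 0.398 and 0.795. In these whole-seed samples, fewer dividing cells and less message per cell cannot be told apart. The part of these marker changes in the members' differences was not tested.

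**Figure D5:**
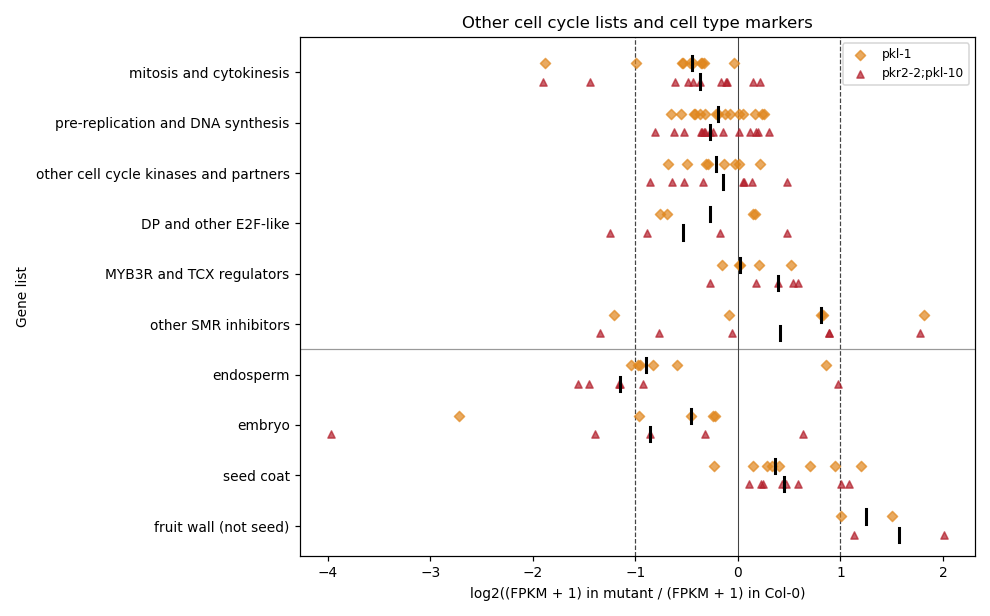
log2((FPKM + 1) ratio) of the tested genes of 6 other cell cycle lists (above the grey line) and 4 marker lists (below it) in pkl-1 (orange diamonds) and the double mutant (red triangles) against Col-0, with a black bar at each median. Mitosis and cytokinesis genes reach -1.90 (KNOLLE), most endosperm and embryo markers lie left of 0, and seed coat and fruit wall markers lie mostly right of it.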

How the data were processed

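Poly(A) RNA from whole seeds of 4 genotypes, 2 replicates each, was sequenced as paired ends. After quality trimming in Fastp, the authors aligned the reads to TAIR10.1 by TopHat2 (2.1.1). Cuffdiff of Cufflinks (2.2.1.3) was then run separately for each pair of genotypes, with geometric library scaling. Values are the FPKM that the authors deposited, 1 per genotype and table and pooled over replicates. The strand setting of the counting is not given in the sources used here. The deposited fold change, test statistic, p-value and q-value columns hold the authors' own comparisons and were not used, and 0 per-sample columns were left unused.

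Differences were computed as log2((FPKM + 1) ratio) for genes with a mean of at least 1 FPKM (Python 3.11.15, pandas 2.3.3, scipy 1.17.1), with steps tested on simulated data. With 1 pooled value a genotype there is no SD and no test. The number of fragments behind a value was estimated from the lowest step of FPKM times length over single-transcript genes of at least 2000 bases. The members and gene lists were chosen with earlier results of these data known. Named in full were members past the threshold in any comparison and, in each role group, the member highest in Col-0 and the one with the largest difference in the double mutant against Col-0. The targeted genes and 2 genes of each other list were named as well, and further members are given more briefly. Of 38209 genes, 37940 matched an annotated locus tag. Promoter windows were cut from the RefSeq genome and annotation by coordinates. Alternatives were other pseudocounts, filters, thresholds and centring on the median of all tested genes.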

Additional observations from a re-analysis of the deposited data

How the results depend on the processing

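No paired analysis was possible because the tables hold 1 pooled value per genotype, and for the same reason no replicate could be left out. Counts moved with the pseudocount and the threshold. With 0.1 FPKM, 11 members were called in pkl-1 against Col-0 (3 higher and 8 lower) instead of 4, and the double mutant had 16 calls against Col-0 instead of 9. With no pseudocount these counts were 13 (3 higher and 10 lower) and 17 (8 and 9). All genes then gave 8.76% higher and 7.70% lower in pkl-1 and 14.1% and 10.6% in the double mutant. At an absolute log2 difference of 0.5, Col-0 as the base gave 3 calls for pkr2-2, 19 for pkl-1 and 22 for the double mutant, while that mutant gave 20 calls with pkr2-2 as the base and 5 with pkl-1. At 0.5 with Col-0 as the base, 10.4% of all genes were higher and 6.85% lower in pkr2-2, and 17.7% and 17.9% in pkl-1. The double mutant gave 24.8% and 22.2%. For the double mutant with pkr2-2 as the base, 20.5% of all genes were lower and nearly the same share was higher. With pkl-1 as the base, 8.72% were higher and 5.98% lower. By direction at 0.5, with Col-0 as the base, 2 of 40 members were higher and 1 lower in pkr2-2, and 7 and 12 of 40 in pkl-1. The double mutant had 10 higher and 12 lower of 41 against Col-0, 7 and 13 against pkr2-2, and 5 and 0 against pkl-1. Several of these counts were thus near the background. The lower counts were above it, by few genes, where a genotype with a pkl mutation was compared with one without. At 2, the calls were 0 in every comparison, where between 0.410% and 2.41% of all genes passed in either direction, so 0 is near the background. Keeping members with a mean of at least 5 FPKM moved the median of members to -0.14 in pkl-1 and to -0.018, below 0, in pkr2-2;pkl-10, both compared with Col-0, and the r for loss of PKR2 to 0.33 (an alternative added after seeing the data). These alternatives keep fewer members or weigh low values differently. Under the pseudocount of 0.1, no pseudocount and centring, 75, 73 and 82 of 85 differences of the members named in full stayed on their side of the threshold, and none that passed it changed sign. Centring lost the call of CYCD3;3 in the double mutant (0.99) and gained those of CYCB1;2 (-1.02) and CDKB2;2. In pkl-1 against Col-0 it gave 1 higher call in place of 0, that of E2FC, which was at 0.999 before centring. Of all genes 6.16% were then called higher. Depth limits members under 1 FPKM, such as CYCD7;1 and CYCB2;1.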
